A study of Mus musculus with 24 samples.

Results

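The 42 genes described here make up the type I interferon response of the mouse as it was chosen by gene symbol, from the ligand interferon-β and its receptor to the transcription factors that carry the signal and the antiviral genes that it switches on. All 42 symbols were found in both tables of read counts, each of which held 54658 genes. The RNA came from male C57BL/6 mice of 7 to 12 weeks with experimental peritonitis. In the thioglycollate (TGC) model, an intraperitoneal injection of 1 mL of 4% Brewer thioglycollate, a sterile irritant, drew inflammatory cells into the peritoneal cavity, and the lavage cells were then plated and exposed to E. coli for 6 h. In the cecal ligation and puncture (CLP) model, in which gut bacteria leak into the abdomen, heart and lung were taken. Mice received intraperitoneal β-NMN (β-nicotinamide mononucleotide, a precursor of the coenzyme NAD+) at 185 mg/kg/day or the saline vehicle. In the TGC model the doses were given daily over 3 days, beginning together with the thioglycollate. In the CLP model dosing began right after surgery, and the mice whose organs were sequenced were killed 24 h later, after 1 dose. In both models the last dose preceded death by 24 h. Peritoneal cells came from 6 vehicle and 6 β-NMN mice, and the hearts and lungs from the same 3 vehicle and 3 β-NMN mice. Every library came from a mouse with peritonitis, and every peritoneal library from cells that had met E. coli, so the levels below are those of an ongoing response and none is a resting level.

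Type I interferons are secreted by cells whose sensors have detected foreign nucleic acid or bacterial products, and interferon-β is the member that macrophages release early after contact with Gram-negative bacteria. They bind the receptor made of IFNAR1 and IFNAR2, whose kinases phosphorylate STAT2. STAT2 acts with IRF9 in the complex ISGF3, which binds the interferon-stimulated response element (ISRE) in front of many genes, among them the IFIT, OAS and Mx families. Their products block viral translation and replication, edit proteins with the ubiquitin-like modifier ISG15, or call in lymphocytes through the chemokines CXCL9, CXCL10 and CXCL11.

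Peritoneal libraries held 31126823 to 112456050 counts, heart libraries 27319513 to 68523239 and lung libraries 8915366 to 28356786. Vehicle mouse 2 stood apart in both organs: its log2 CPM (read counts scaled to the size of the library) differed from the mean of the other libraries of that organ with an SD over genes of 0.99 in heart and 1.57 in lung, against 0.39 to 0.60 for every other organ library. Its lung library was also the shallowest of all 24. The organ labels matched their markers, since the summed CPM of 6 cardiomyocyte markers was 30476 or more in every heart and 415 or less in every lung, and the summed CPM of 6 alveolar and airway markers was 58237 or more in every lung and 2.80 or less in every heart. In the peritoneal cells, 7 macrophage markers summed to 3647 to 7986 CPM. These are bulk samples, in which fewer cells of a type and less RNA per cell cannot be told apart.

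To compare levels between genes, CPM were divided by the exonic length of each gene in kilobases. In vehicle peritoneal cells the highest level per length was that of Cxcl10, at 2536 ± 951 CPM per kb (SD, n = 6), followed by Rsad2, which encodes the antiviral enzyme viperin, at 2399 ± 436, by Isg15 at 1595 ± 278 and by Ifit2 at 1170 ± 315. The ranges of neighbours in this order overlapped, since Cxcl10 ran from 1177 to 3574 and Rsad2 from 1751 to 2939. At the other end stood Ifi44 at 7.57 ± 1.81 CPM per kb, the ligand Ifnb1 at 9.05 ± 3.06 and Cxcl11 at 18.4 ± 9.63, which also overlapped.

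**Figure D1:**
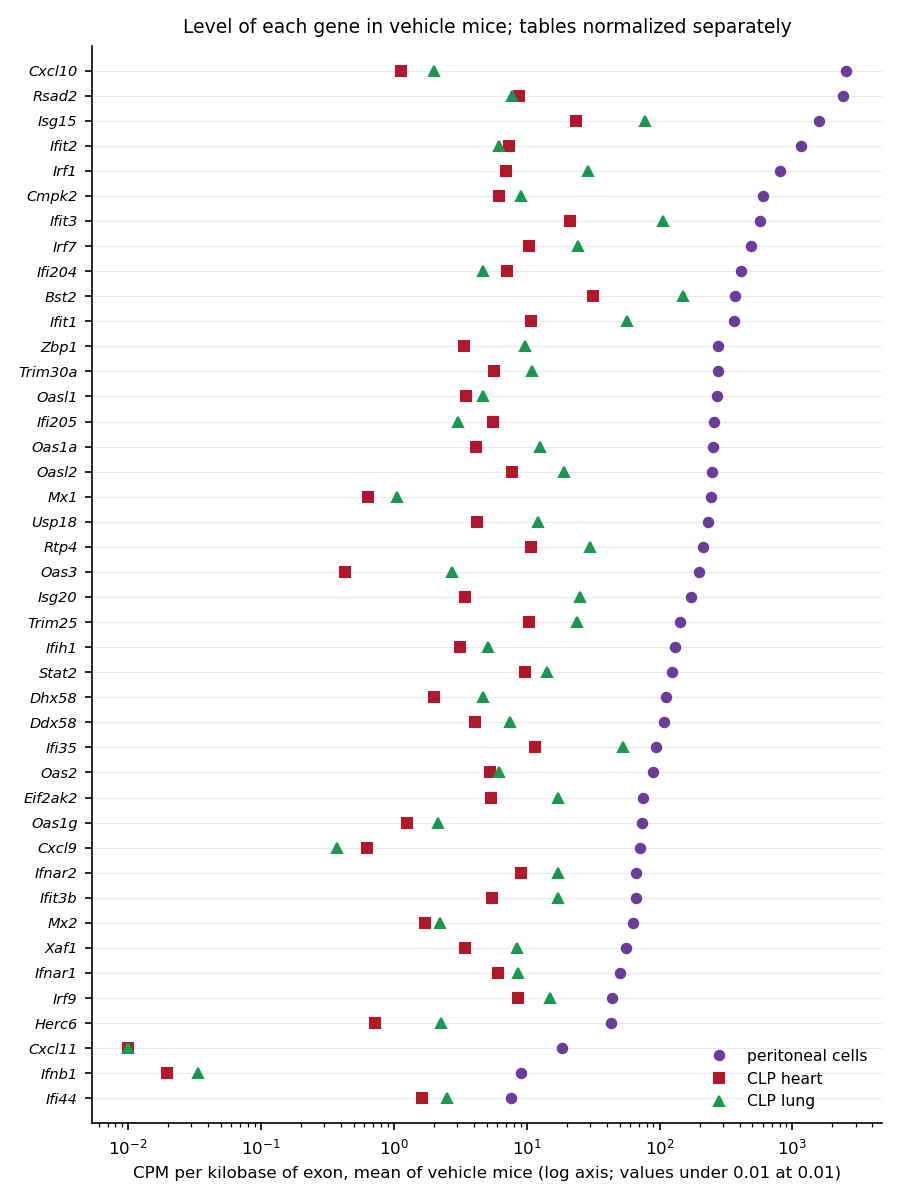
Mean level per length of the 42 genes in vehicle mice, in CPM per kilobase of exon on a log axis (values under 0.01 drawn at 0.01), for peritoneal cells (circles, n = 6), CLP heart (squares, n = 3) and CLP lung (triangles, n = 3), with genes ordered by their peritoneal level. Cxcl10 and Rsad2 lead in peritoneal cells, Bst2 leads in both organs, and Ifnb1 and Cxcl11 are the lowest in both organs.

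The order was another in the organs, whose counts are in a separate table and are not set against the peritoneal values by a test. Bst2, which encodes the virion-tethering protein tetherin, had the highest level per length both in vehicle hearts (31.7 ± 14.3 CPM per kb, SD, n = 3) and in vehicle lungs (150 ± 36.9), and ranked 10 of 42 in peritoneal cells at 371 ± 23.6. In heart it was followed by Isg15 (23.7 ± 11.4) and Ifit3 (21.1 ± 11.6), and in lung by Ifit3 (107 ± 62.1) and Isg15 (77.6 ± 44.3). The ranges of neighbours in each order overlapped, but in lung Bst2 (123 to 192) stayed above Isg15 (31.1 to 119). Ifnb1 itself was scarcely seen in the organs: 1 read in each of vehicle hearts 1 and 3, 1 read in each of vehicle lungs 1 and 3, and 0 in the other 8 libraries. A count of 0 allows 0.0438 to 0.110 CPM in those hearts and 0.120 to 0.336 CPM in those lungs (3 counts of the total, counting error only), so no difference in Ifnb1 was detectable there. Cxcl11 had 0 to 3 reads per organ library.

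In peritoneal cells, 11 of the 42 genes (26.2%) were higher with β-NMN and 3 (7.14%) lower at an adjusted p under 0.05 in edgeR's quasi-likelihood test with Benjamini-Hochberg adjustment. Among all 14985 genes tested, 23.7% were called higher and 27.9% lower (51.6% in either direction), so the share of interferon response genes called higher was close to that of genes at large, and the share called lower was smaller. The 11 were Ifnb1, Ifit1, Ifit2, Ifit3, Oas1g, Oas2, Mx1, Mx2, Cmpk2, Ifi44 and Ifi205, and the 3 were Ifnar2, Stat2 and Irf9. All β-NMN samples lay above all vehicle samples for 5 genes (Ifnb1, Ifit1, Ifit2, Mx1, Mx2) and below them for 1 (Irf9), while 12.6% and 14% of all genes separated in those directions. Fold changes were above 0 for 28 of the 42 and for 48.5% of all genes. They had a median of 0.14 on the log2 scale, against -0.02 over all genes, and ran from -0.46 to 1.41.

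**Figure D2:**
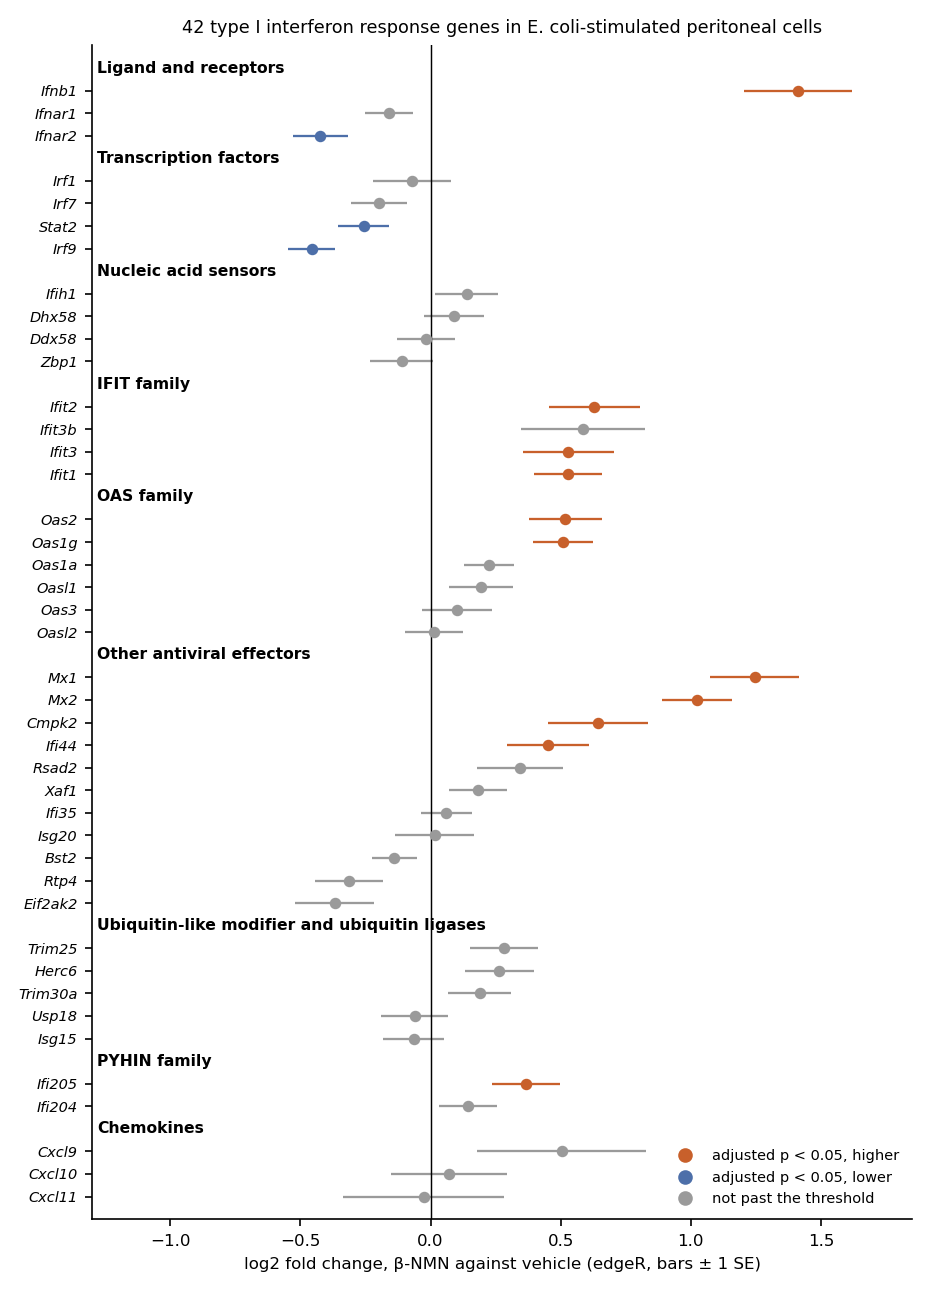
Log2 fold change of β-NMN against vehicle in peritoneal cells for each of the 42 genes, grouped by role, with bars of 1 SE either side; orange points were called higher and blue points lower at an adjusted p of 0.05 in edgeR's quasi-likelihood test, and grey points were not called. Ifnb1, Mx1 and Mx2 stand above 1, and Ifnar2, Stat2 and Irf9 are the 3 blue points.

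The ligand rose the most. Ifnb1 (chromosome 4, 88522025 to 88522774, minus strand, GRCm38) had a lowest, median and highest level of 4.47, 6.42 and 10.4 CPM in the 6 vehicle samples and of 13.1, 18.3 and 23.4 CPM in the 6 β-NMN samples. The groups did not overlap. The difference was 2.66-fold (log2 fold change 1.41, SE 0.21, edgeR adjusted p = 6.09e-05), and the exact permutation test gave p = 0.00216, the smallest that 6 against 6 samples can give.

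One chain of the receptor and 2 of the transcription factors downstream of it were called lower. Ifnar2, the high-affinity chain of the receptor, was at 196, 219 and 253 CPM (lowest, median, highest) in vehicle and at 143, 155 and 214 CPM in β-NMN samples, so that the ranges overlapped at their edge (log2 fold change -0.42, SE 0.11, edgeR adjusted p = 0.00383). Irf9, the DNA-binding subunit of ISGF3, fell from 224, 234 and 262 CPM to 154, 167 and 216 CPM. No β-NMN sample reached the lowest vehicle sample, and the log2 fold change was -0.46 (SE 0.089, edgeR adjusted p = 0.000598). Stat2, its partner, was at 646, 746 and 814 CPM in vehicle and at 531, 604 and 743 CPM with β-NMN (log2 fold change -0.26, SE 0.097, edgeR adjusted p = 0.0379). This last call was marginal: it was lost with DESeq2 size factors in edgeR (adjusted p = 0.0649), without the low-count filter (adjusted p = 0.247) and with the replicate number as a block (adjusted p = 0.0516), and whenever vehicle sample 1, 2, 3, 5 or 6 or β-NMN sample 1, 2, 3, 4 or 5 was left out (adjusted p = 0.0503 to 0.151). The other receptor chain, Ifnar1, had a log2 fold change of -0.16 (SE 0.093, edgeR adjusted p = 0.160). Irf7, the factor that amplifies the production of interferon, was at -0.20 (SE 0.11, edgeR adjusted p = 0.142), and Irf1, which is also driven by interferon-γ, was at -0.07 (SE 0.15, edgeR adjusted p = 0.715).

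The IFIT genes, whose tetratricopeptide-repeat products bind viral RNA and hold back its translation, lie side by side on chromosome 19 (34550694 to 34650009) and had the highest median of the role groups with more than 2 members, 0.56 on the log2 scale. Ifit2 was at 2858, 4898 and 5881 CPM (lowest, median, highest) in vehicle and at 6340, 6647 and 9550 CPM in β-NMN samples. The highest vehicle sample stayed below the lowest β-NMN sample (log2 fold change 0.63, SE 0.18, edgeR adjusted p = 0.00767). Ifit1 also separated, at 691, 1027 and 1174 CPM against 1245, 1286 and 1731 CPM (log2 fold change 0.53, SE 0.13, edgeR adjusted p = 0.00362). Ifit3 and Ifit3b are near-identical copies whose reads the counting may split between them, so each value is uncertain. They gave log2 fold changes of 0.53 (SE 0.18, edgeR adjusted p = 0.0197) and 0.59 (SE 0.24, edgeR adjusted p = 0.0502), and in both the ranges overlapped.

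The OAS genes encode enzymes that make the second messenger which activates RNase L, and OAS-like proteins without that activity. All 6 lie on chromosome 5, in a pair of clusters, and had a median of 0.21, with 2 called higher. Oas2 was at 290, 420 and 478 CPM in vehicle and at 462, 555 and 688 CPM with β-NMN, with the lowest β-NMN sample inside the vehicle range (log2 fold change 0.52, SE 0.14, edgeR adjusted p = 0.00670). The neighbouring copies Oas1a and Oas1g, which may also share reads, differed in their calls: Oas1g had a log2 fold change of 0.51 (SE 0.12, edgeR adjusted p = 0.00214) and Oas1a of 0.22 (SE 0.097, edgeR adjusted p = 0.0636). Oasl1 (0.19), Oas3 (0.10) and Oasl2 (0.01) did not pass, and the difference between members of the family was not tested.

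Among the other 11 antiviral effectors, Mx1 and Mx2 stood out. Both encode dynamin-like GTPases that trap viral components, and C57BL/6 mice carry defective alleles of both, so that the transcript level says nothing of a working protein (the annotation lists Mx2 as a polymorphic pseudogene). Mx1 (chromosome 16, 97447035 to 97462907, minus strand) was at 574, 1004 and 1206 CPM in vehicle and at 1770, 2145 and 2600 CPM in β-NMN samples. Mx2, its neighbour, was at 179, 238 and 288 CPM against 372, 467 and 573 CPM. Neither gene had any overlap between the groups, and the differences were 2.37-fold for Mx1 (log2 fold change 1.25, SE 0.17, edgeR adjusted p = 3.11e-05) and 2.03-fold for Mx2 (log2 fold change 1.02, SE 0.13, edgeR adjusted p = 2.12e-05). Exact permutation tests gave p = 0.00216 for each, the smallest possible here.

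Cmpk2, a mitochondrial nucleotide kinase, and Rsad2 lie head to head on chromosome 12. Cmpk2 was at 1723, 2615 and 3124 CPM in vehicle and at 2895, 3653 and 6161 CPM with β-NMN (log2 fold change 0.64, SE 0.19, edgeR adjusted p = 0.0114). Rsad2, the more abundant by far, was at 7589, 10609 and 12740 CPM against 11081, 11714 and 19898 CPM (log2 fold change 0.34, SE 0.17, edgeR adjusted p = 0.0954). The ranges of both overlapped, and only Cmpk2 passed, although the difference between the neighbours was not tested. Ifi44, which encodes a cytoplasmic protein made in response to interferon, also rose, by 0.45 on the log2 scale (SE 0.16, edgeR adjusted p = 0.0251). The remaining effectors did not pass. Eif2ak2, which encodes the RNA-activated kinase PKR, had the lowest value of the group at -0.37 (SE 0.15, edgeR adjusted p = 0.0553) and the receptor transporter Rtp4 was at -0.31 (SE 0.13, edgeR adjusted p = 0.0550). Xaf1 (0.18), Ifi35 (0.06), Isg20 (0.02) and Bst2 (-0.14) were closer to 0.

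The nucleic acid sensors, which start the production of interferon, held no call in either direction. Their log2 fold changes were 0.14 for Ifih1 (MDA5), 0.09 for Dhx58 (LGP2), -0.02 for Ddx58 (RIG-I) and -0.11 for Zbp1, with edgeR adjusted p from 0.360 to 0.907. The ISG15 system gave 0 of 5 calls: Isg15 itself was at 869, 1218 and 1503 CPM in vehicle and at 1041, 1130 and 1353 CPM in β-NMN samples, the second range lying within the first (log2 fold change -0.06, SE 0.12, edgeR adjusted p = 0.676). Usp18, which removes ISG15 and dampens the receptor, was at -0.06, and the ligases Trim25, Herc6 and the regulator Trim30a were at 0.28, 0.26 and 0.19, with edgeR adjusted p of 0.0809 or more. Of the PYHIN genes, whose products bind DNA, Ifi205 rose from 700, 1111 and 1401 CPM to 1263, 1404 and 1557 CPM (log2 fold change 0.37, SE 0.13, edgeR adjusted p = 0.0300), whereas Ifi204 had a value of 0.14 (SE 0.11, edgeR adjusted p = 0.303).

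The chemokines, which draw T and NK cells, held no call. Cxcl10 was at 2650, 6330 and 8048 CPM (lowest, median, highest) in vehicle and at 5338, 5887 and 7336 CPM in β-NMN samples (log2 fold change 0.07, SE 0.22, edgeR adjusted p = 0.811). The β-NMN samples all lay inside the vehicle range. Cxcl9 was at 73.6, 257 and 309 CPM against 197, 309 and 360 CPM (log2 fold change 0.50, SE 0.33, edgeR adjusted p = 0.211), and Cxcl11, which the annotation also lists as a polymorphic pseudogene, had a log2 fold change of -0.03 (SE 0.31, edgeR adjusted p = 0.953).

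**Figure D3:**
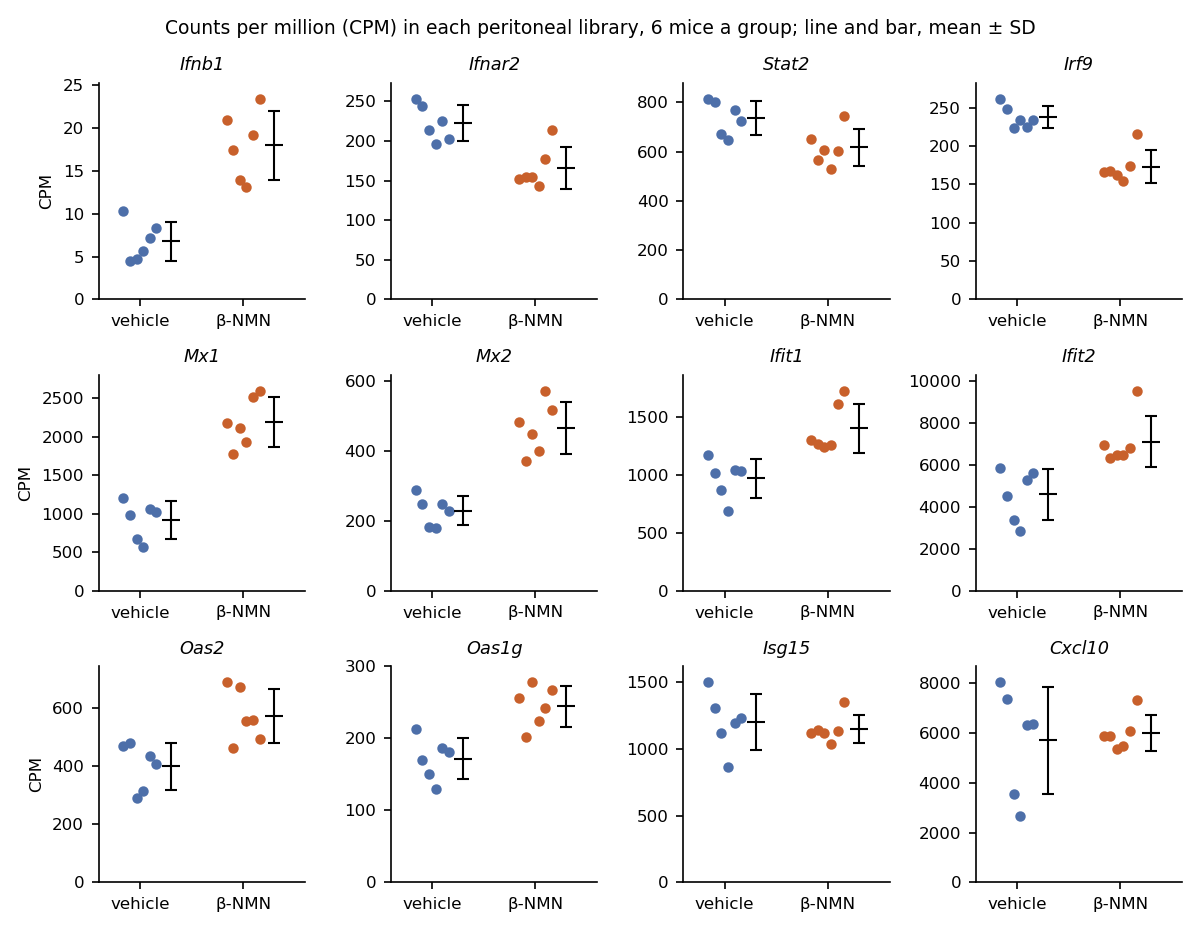
CPM of 12 of the genes in each peritoneal sample (points) on linear axes from 0, with the 6 vehicle samples at the left and the 6 β-NMN samples at the right of each panel, and the mean ± SD of each group beside them. The groups separate for Ifnb1, Mx1, Mx2, Ifit1, Ifit2 and Irf9 and overlap for the other 6.

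By role, 3 of 4 IFIT genes, 4 of 11 other antiviral effectors, 2 of 6 OAS genes, 1 of 2 PYHIN genes and the ligand were called higher, against 23.7% of all genes. Called lower were 2 of 4 transcription factors and 1 of 2 receptor chains, against 27.9% of all genes. The sensors, the ISG15 system and the chemokines held no call. No test of the difference between these groups was made. Over the 42 genes, vehicle sample 4 was the lowest of the 12 samples for 25 genes, vehicle sample 1 the highest for 17 and β-NMN sample 6 the highest for 17. Without β-NMN sample 6, Rtp4 (log2 fold change -0.42, edgeR adjusted p = 0.00284) and Eif2ak2 (-0.51, edgeR adjusted p = 0.00127) were called lower as well. Without vehicle sample 1, the calls were 16 higher and 2 lower, with Ifit3b, Oas1a, Rsad2, Xaf1 and Herc6 added and Stat2 lost.

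The stretches of sequence before the transcription start that hold the letters of interferon and NF-κB response elements are shown next, because genes with the same letters had different calls. Windows of 250 bases before the start (RefSeq, GRCm38.p6) were at hand for 33 of the 42 genes and were searched on both strands. The 9 without a window were Dhx58, Zbp1, Oas2, Mx1, Mx2, Rtp4, Usp18, Ifi204 and Cxcl11. Of these, Oas2, Mx1 and Mx2 were called higher and are missing from the counts below. An ISRE-type run, GAAA followed after any 2 bases by GAAA, was present in at least 1 window of 13 of the 33 genes (39.4%) and of 3.46% of all 27025 genes with a window. Of the 13 genes with it, 4 were called higher in peritoneal cells (Ifit1, Ifit3, Oas1g, Ifi205), 1 lower (Stat2) and 8 neither, and of the 20 without it, 4 were called higher, 2 lower and 14 neither. A κB-type run, GGGA followed after any 2 bases by TTCC, was present in 4 genes (12.1%, against 1.36% of all genes), Ifnb1, Ifit2, Isg20 and Cxcl10. A GAS-type run, TTC followed after any 3 bases by GAA (a gamma-activated site), was present in 7 genes (21.2%, against 8.13% of all genes). A match of letters is a description and not a measured site. Below, matches are in capitals, on the strand of the gene (an ISRE-type run on the other strand reads as a pair of TTTC), with overlapping matches joined.
Ifnb1, chr4:88522886-88522925, minus strand: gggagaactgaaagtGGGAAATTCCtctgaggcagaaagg
Ifit1, chr19:34640770-34640828, plus strand: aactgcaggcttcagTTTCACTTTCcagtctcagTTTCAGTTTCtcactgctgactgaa
Ifit3, chr19:34583358-34583431, plus strand: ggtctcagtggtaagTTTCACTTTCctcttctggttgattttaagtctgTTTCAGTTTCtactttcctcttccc
Ifit3b, chr19:34607754-34607827, plus strand: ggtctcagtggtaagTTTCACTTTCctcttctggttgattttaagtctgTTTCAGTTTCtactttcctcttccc
Oas1a, chr5:120907526-120907560, minus strand: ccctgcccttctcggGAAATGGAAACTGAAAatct
Oas1g, chr5:120887614-120887646, minus strand: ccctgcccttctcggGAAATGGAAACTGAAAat
Isg15, chr4:156200860-156200911, minus strand: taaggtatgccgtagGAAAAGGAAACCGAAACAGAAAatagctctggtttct
Stat2, chr10:128270261-128270300, plus strand: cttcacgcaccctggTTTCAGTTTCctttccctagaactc
Cxcl10, chr5:92349024-92349117, minus strand: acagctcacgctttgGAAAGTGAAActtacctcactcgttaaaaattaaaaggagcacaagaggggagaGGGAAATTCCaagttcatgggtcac

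The stretches of Ifit3 and Ifit3b were identical over 74 bases, and those of Oas1a and Oas1g over the 33 bases they share. Isg15, with 3 overlapping matches, and Cxcl10, with an ISRE-type and a κB-type match, had peritoneal log2 fold changes of -0.06 and 0.07, while Ifit1, with 2 matches, had 0.53 and Stat2, with 1, had -0.26. The others with 2 ISRE-type matches were Ifit3 (0.53), Ifit3b (0.59), Oas1g (0.51), Oas1a (0.22) and Bst2 (-0.14, not shown above). The stretches shown were picked by hand, and whether the number of matches goes with the change was not tested.

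Genes of the same pathway outside the 42 were read from lists of their own, to be set beside the 23.7% of all genes called higher and the 27.9% called lower. Of 20 other interferon ligands, 5 had enough counts, and 0 were called higher and 2 lower, led by Ifng, the type II interferon of NK and T cells (log2 fold change -1.62, SE 0.36, edgeR adjusted p = 0.00168). Of 19 genes that act in the induction of interferon, 3 were higher and 8 lower, led by the lipopolysaccharide co-receptor Cd14 (-2.92, SE 0.28, edgeR adjusted p = 1.28e-06). A further 47 interferon-stimulated genes gave 7 higher and 7 lower, both smaller shares than among genes at large. Their fold changes were above 0 for 27 of the 47, against 48.5% of all genes. The smallest p was that of Ifitm1, which blocks viral entry (-1.58, SE 0.15, edgeR adjusted p = 8.37e-07).

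Markers of several cell types moved with the groups in peritoneal cells, and their part in the results above was not tested. All 5 NK cell markers were called lower (summed 47.2 to 245 CPM in vehicle, 15.6 to 35.6 CPM in β-NMN samples), as were all 5 T cell markers (3.91 to 16.5 against 1.88 to 4.16 CPM). Of the plasmacytoid dendritic cell markers, a cell type known for making interferon, 2 of 5 tested were lower (39.1 to 98.8 against 13.8 to 25.5 CPM). Of the 5 conventional dendritic cell markers 3 were lower and 1 higher (32.7 to 53.0 against 14.1 to 18.3 CPM). Lower too were 4 of 4 fibroblast markers (74.1 to 812 against 17.1 to 64.4 CPM). Of the 7 neutrophil markers tested 5 were lower and 1 higher (491 to 999 against 334 to 468 CPM). Of the 6 markers of resident large peritoneal macrophages, 4 were higher and 2 lower (33.4 to 50.6 against 49.8 to 149 CPM), and all 5 red blood cell markers were higher. Of the 7 macrophage markers 2 were higher and 1 lower, and their sums overlapped (3647 to 7986 against 3796 to 4291 CPM). The lower one was Cd14, with a mean of 2693 CPM in vehicle and 355 CPM in β-NMN samples, so the sum rests in large part on it in vehicle. Depth also ran across the groups, as vehicle samples 4 to 6 and β-NMN samples 1 and 2 were the samples with the most counts (90571560 or more, against 53319385 or fewer). Among these 5 samples alone, 3 genes were called higher (Ifnb1, Mx1, Mx2) and 1 lower (Irf9), and among the other 7, 7 were higher and 1 lower, in fits with fewer samples. Among the 5, the log2 fold changes of genes no longer called included 0.54 for Ifit1, 0.60 for Ifit2, 0.53 for Oas1g, 0.64 for Oas2 and 0.64 for Cmpk2, close to those over all 12 samples, and 0.24 for Ifi44 and -0.16 for Stat2, which were smaller.

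In the hearts of the same treatment arms after CLP, 40 of the 42 genes had enough counts to be tested, and 0 passed in edgeR's quasi-likelihood test, where 0% of all 16245 genes did. At an unadjusted p under 0.05 in that test there were 4 (10%, against 11.3% of all genes), each with a fold change below 0 (7.63% of all genes), and DESeq2 called 1 lower, Ifi204, where it called 1.48% of all genes lower. Fold changes were below 0 for 36 of the 40 genes and for 50.7% of all genes, with a median of -0.49 on the log2 scale against -0.01 over all genes. The lowest p belonged to Ifi204, with 17.2, 31.9 and 27.4 CPM in vehicle hearts 1, 2 and 3 and 9.53, 8.68 and 14.2 CPM in β-NMN hearts 1, 2 and 3. The 3 β-NMN hearts were below the 3 vehicle hearts (log2 fold change -1.23, SE 0.29, unadjusted p = 0.00352 and adjusted p = 0.435 in edgeR, adjusted p = 0.0116 in DESeq2). Exact permutation of 3 against 3 cannot go below p = 0.1.

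**Figure D4:**
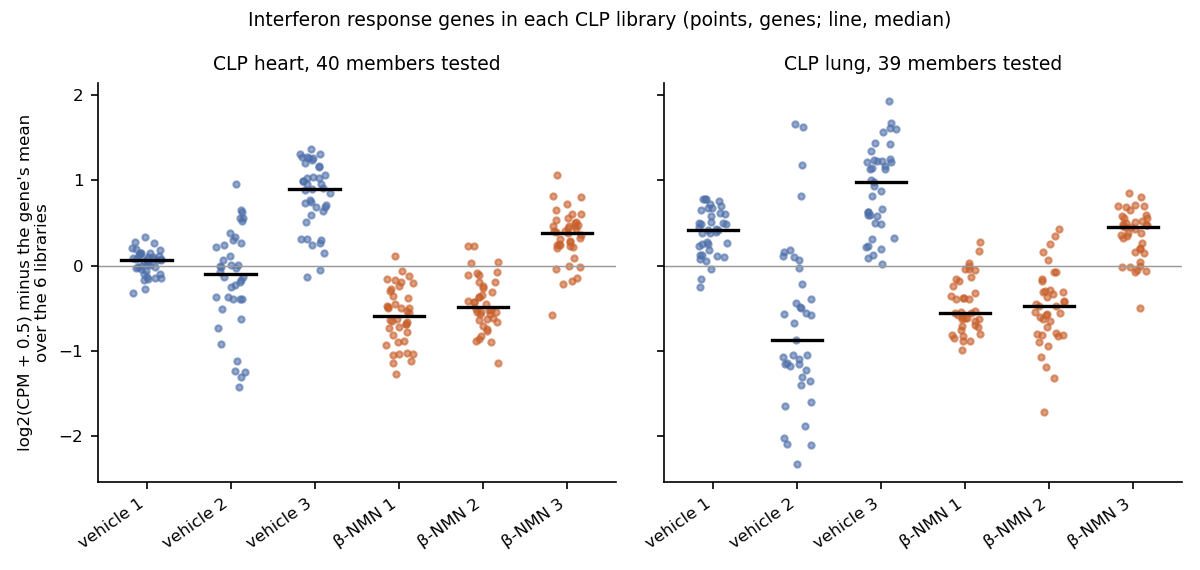
Deviation of each tested gene (points) from its own mean over the 6 libraries of an organ, as log2(CPM + 0.5), in each CLP heart (left) and lung (right), with a line at the median of the genes. Vehicle mouse 3 has the highest median in both organs (0.90 and 0.98), and vehicle lung 2 has the widest scatter.

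Cxcl10 also separated in heart, at low levels: 1.04, 2.48 and 4.13 CPM in vehicle hearts against 0.819, 0.942 and 0.791 CPM with β-NMN (log2 fold change -1.57, SE 0.49, edgeR adjusted p = 0.435, and -1.04 without vehicle heart 3). Ifi205 was the last of the 3 genes without overlap, all lower, where 11.5% of all genes separated that way. Its CPM were 17.7, 28.9 and 23.0 in vehicle and 17.3, 15.2 and 17.5 in β-NMN hearts, so that only a small gap divided the groups. Zbp1, a sensor that can also start cell death, was at 8.08, 10.5 and 17.2 CPM in vehicle and at 2.87, 2.88 and 8.34 CPM in β-NMN hearts. Here β-NMN heart 3 lay above vehicle heart 1 (log2 fold change -1.33, SE 0.50, edgeR adjusted p = 0.435, and -2.05 without that heart).

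In the next 3 genes, heart 3 was the highest in each arm. Ifit1 was at 22.0, 17.96 and 46.0 CPM in vehicle hearts and at 8.64, 9.59 and 24.3 CPM in β-NMN hearts (log2 fold change -1.01, SE 0.51, edgeR adjusted p = 0.454). Isg15 was at 13.7, 12.2 and 27.8 CPM against 4.36, 6.39 and 14.7 CPM (-1.06, SE 0.51, edgeR adjusted p = 0.447). Mx1 was at 1.71, 1.39 and 4.16 CPM against 0.596, 0.905 and 2.23 CPM (-0.92, SE 0.61, edgeR adjusted p = 0.507). In all 3 genes β-NMN heart 3 reached above the lower vehicle hearts. Their log2 fold changes without vehicle heart 3 were -0.48 for Ifit1, -0.60 for Isg15 and -0.29 for Mx1, and without β-NMN heart 3 they were -1.65, -1.72 and -1.66. Over the 40 genes, vehicle heart 3 was the highest library for 34, and the median deviation of the genes from their mean over the 6 hearts was 0.90 on the log2 scale there, 0.38 in β-NMN heart 3 and between -0.59 and 0.07 in the other 4.

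Receptor chains and transcription factors in heart gave log2 fold changes of -0.22 for Ifnar1 (SE 0.14), -0.33 for Ifnar2 (SE 0.23), -0.59 for Stat2 (SE 0.34), -0.48 for Irf9 (SE 0.23), -0.35 for Irf7 (SE 0.47) and 0.06 for Irf1 (SE 0.17), none past the test. Single hearts moved these values: without vehicle heart 2 Ifnar1 was at -0.097 and Ifnar2 at -0.030, without vehicle heart 3 Irf7 was at 0.26, and without β-NMN heart 3 Stat2 was at -1.08 and Irf9 at -0.76. By role, the medians were -0.74 for the IFIT genes, -0.61 for the OAS genes, -0.57 for the sensors and -0.20 for the other effectors, among which Rsad2 was at 0.25 (SE 0.48), with -0.13 without vehicle heart 2 and 0.79 without vehicle heart 3. Neutrophil markers in these hearts summed to 25.4 to 42.2 CPM with vehicle and 15.4 to 18.4 CPM with β-NMN, and cardiomyocyte markers to 30476 to 49687 against 52021 to 56905 CPM. The list named for resident peritoneal macrophages (275 to 1078 against 230 to 265 CPM) and the conventional dendritic cell markers (13.5 to 24.4 against 25.9 to 29.0 CPM) did not overlap either. Nor did those of NK cells, which had too few counts to be tested (0.437 to 0.752 against 0.370 to 0.410 CPM). The resident list summed to more than the 7 general macrophage markers in every heart, so it is not read as a macrophage level here. Those 7 markers overlapped (161 to 185 CPM in vehicle, 135 to 170 CPM in β-NMN hearts). Mesothelial markers reached 100 CPM in vehicle heart 2 against 5.92 to 13.9 CPM in the others, and the part of these markers in the interferon genes was not tested. Without vehicle heart 2, 40 of 40 fold changes were below 0 (median -0.62). Without vehicle heart 3, 26 were below 0 and 14 above (median -0.16), so the size of the shift rested in part on that mouse.

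In the lungs, 39 of the 42 genes were tested (Ifnb1, Cxcl9 and Cxcl11 had too few counts), and 0 passed in edgeR's quasi-likelihood test, where 0% of all 17008 genes did. DESeq2 called 0 as well, and 0.0529% of all genes. At an unadjusted p under 0.05 in edgeR's test there were 5 genes (12.8%, against 1.77% of all genes), all with fold changes below 0 (1.28% of all genes). They were Ifit1, Rsad2, Eif2ak2, Herc6 and Ifi205. Vehicle lung 2, the library that stood apart, was the highest of the lungs for all of them but Rsad2. Of the 39, 35 had a fold change below 0, against 49.9% of all genes, with a median of -0.54 on the log2 scale against 0.00 over all genes. In 6 genes the 3 β-NMN lungs lay below the 3 vehicle lungs (15.4%, against 3.75% of all genes): Ifit1, Rsad2, Irf1, Eif2ak2, Herc6 and Ifi205.

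Ifit1 had the lowest p in lung, with 101, 234 and 117 CPM in vehicle lungs 1, 2 and 3 and 40.6, 22.6 and 71.9 CPM in β-NMN lungs 1, 2 and 3. Vehicle lung 2, the library that stood apart, was the highest (log2 fold change -1.74, SE 0.52, unadjusted p = 0.0118 and adjusted p = 0.969 in edgeR). Leaving out each library gave log2 fold changes of -2.24 to -1.27 for Ifit1. Rsad2 was at 28.5, 24.8 and 48.3 CPM against 14.6, 16.05 and 22.7 CPM. Here vehicle lung 2 was the lowest vehicle library and still above every β-NMN lung (log2 fold change -0.93, SE 0.33, edgeR adjusted p = 0.969). Ifi205 was at 8.97, 19.4 and 9.57 CPM against 5.30, 4.45 and 7.996 CPM (-1.08, SE 0.42, edgeR adjusted p = 0.969), and Eif2ak2 at 43.1, 164 and 55.9 CPM against 41.1, 31.0 and 36.3 CPM (-1.27, SE 0.51, edgeR adjusted p = 0.969). In both, vehicle lung 2 was far above all others, and without it the log2 fold changes were -0.64 for Ifi205 and -0.45 for Eif2ak2. That of Rsad2 was -0.57 without vehicle lung 3.

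In the next 3 genes vehicle lung 2 was the lowest vehicle library. Irf7 was at 92.5, 20.2 and 165 CPM in vehicle lungs and at 30.4, 30.4 and 84.8 CPM in β-NMN lungs (log2 fold change -0.93, SE 0.75, edgeR adjusted p = 0.969). Isg15 was at 62.2, 23.5 and 90.2 CPM against 25.0, 16.2 and 52.5 CPM (-0.91, SE 0.59, edgeR adjusted p = 0.969). Mx1 was at 3.88, 0.144 and 7.87 CPM against 1.28, 1.55 and 4.44 CPM (-0.74, SE 1.03, edgeR adjusted p = 0.969). Without vehicle lung 3 the values were -0.22 for Irf7, -0.45 for Isg15 and 0.19 for Mx1, and without β-NMN lung 3 they were -1.61, -1.52 and -1.51. Within the vehicle lungs these 3 genes spanned a wider range than the difference between the groups. Vehicle lung 2 was the lowest library for 21 of the 39 genes and the highest for 5, and vehicle lung 3 was the highest for 31.

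The receptor chains were at 0.23 for Ifnar1 (SE 0.41) and 0.09 for Ifnar2 (SE 0.24) in lung, and at -0.11 and -0.078 without vehicle lung 2. Stat2 was at -0.34 (SE 0.64), Irf9 at -0.35 (SE 0.37) and Irf1 at -0.25 (SE 0.21), and without vehicle lung 3 Stat2 was at 0.28 and Irf9 at -0.11. Without β-NMN lung 3 Irf9 was at -0.66, and without β-NMN lung 2 Irf1 was at -0.16. The role medians were -0.70 for the OAS genes, -0.59 for the IFIT genes, -0.35 for the sensors and -0.53 for the other effectors, among which Isg20, an exonuclease, was at 0.17 (SE 0.68), with -0.32 without vehicle lung 2 and 0.65 without vehicle lung 3. Endothelial markers summed to 969 CPM in vehicle lung 2 against 1986 to 2873 CPM in the other 5, and red blood cell markers to 11867 CPM against 1999 to 4088 CPM. The 2 arms did not overlap in the markers of conventional dendritic cells (42.04 to 75.6 CPM in vehicle, 77.0 to 97.2 CPM in β-NMN lungs), eosinophils (15.3 to 34.6 against 35.03 to 44.2 CPM) or cardiomyocytes (252 to 415 against 74.7 to 245 CPM), and their part in the interferon genes was not tested. Without vehicle lung 2, 39 of 39 fold changes were below 0 (median -0.90). Without vehicle lung 3, 22 were below 0 and 17 above (median -0.08).

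**Figure D5:**
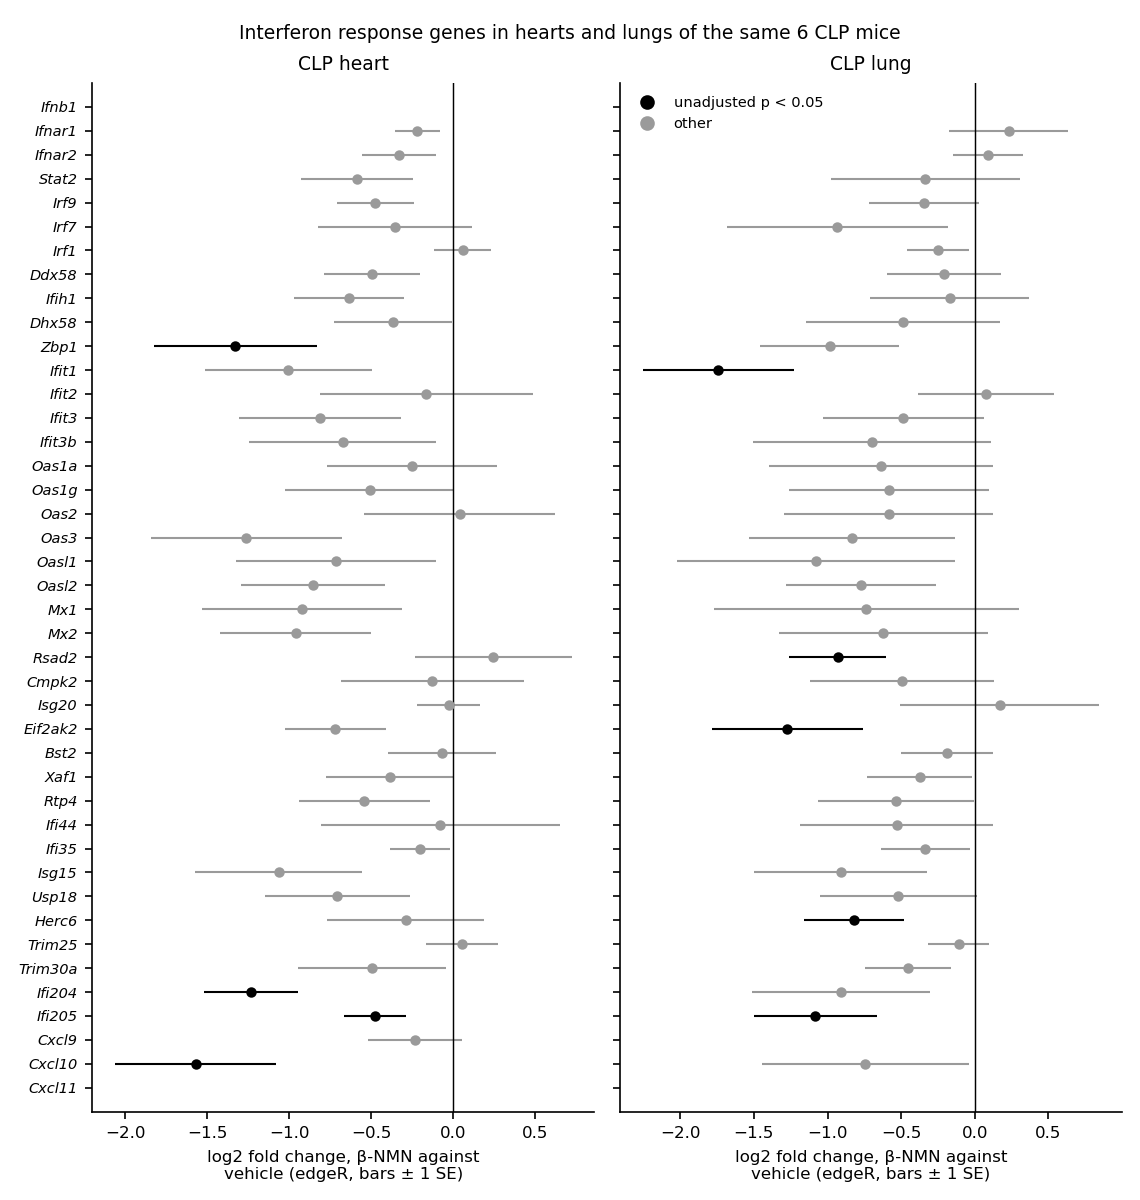
Log2 fold change of β-NMN against vehicle for each tested gene in CLP hearts (40 genes) and CLP lungs (39 genes), in order of role, with bars of 1 SE either side; black points had an unadjusted p under 0.05 in edgeR's quasi-likelihood test. Most points lie below 0 in both organs, and no gene passed after adjustment.

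Whether β-NMN acted differently in the 2 organs was tested by an interaction term over all 12 organ libraries, with the mouse as a block. None of the 40 genes tested passed in edgeR's quasi-likelihood test, where 0% of 18318 genes did, and 1 was under an unadjusted p of 0.05, where 2.72% of all genes were. That gene was Rsad2, whose β-NMN log2 fold change was larger by 1.28 in heart than in lung (SE 0.33, edgeR unadjusted p = 0.00509, adjusted p = 0.948). Its 3 β-NMN hearts lay at 30.7, 44.4 and 59.7 CPM against 36.2, 15.7 and 62.0 CPM in vehicle hearts, overlapping, while its lungs did not overlap. The difference between peritoneal cells and the organs, where the medians were 0.14, -0.49 and -0.54, was not tested, since the tables, the models and the mice differ.

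Some of the 40 genes differed in level between the organs of the same 6 mice. These levels are CPM scaled over the 12 organ libraries together, which are not those of the separate organs above. In edgeR's quasi-likelihood test with the mouse as a block, 6 of the 40 were higher in heart and 15 higher in lung. Of all genes 28.5% and 33.7% were (62.3% in either direction). The share higher in heart was thus smaller than among genes at large, and the share higher in lung was close to it. The 6 genes higher in heart were Rsad2 (log2 difference heart minus lung 1.35), Ifit2 (0.67), Oas2 (0.83), Ifi204 (1.23), Ifi205 (1.91) and Cxcl9 (2.94), each so in 6 of 6 mice. For Rsad2 the means were 52.5 ± 22.4 CPM in heart and 20.5 ± 10.1 CPM in lung (SD, n = 6, edgeR adjusted p = 0.000307). For Ifi205 they were 25.1 ± 6.16 and 7.24 ± 3.81 CPM (edgeR adjusted p = 5.65e-05).

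The 15 genes that were higher in lung were led by Oas3 (-2.17, SE 0.33, edgeR adjusted p = 0.000967), Isg20 (-2.10, SE 0.39, edgeR adjusted p = 0.00241) and Ifit3 (-1.81, SE 0.24, edgeR adjusted p = 0.000424), and included Bst2 (-1.53), Ifi35 (-1.45) and Isg15 (-1.08). Oas3 had 2.67 ± 1.84 CPM in heart and 12.2 ± 10.5 CPM in lung, lower in heart in 6 of 6 mice. Family members thus lay on both sides: Oas2 was higher in heart and Oas3 in lung, and Ifit2 was higher in heart and Ifit1 and Ifit3 in lung. With library totals in place of TMM factors, the median of all genes moved from -0.10 to -0.79, the counts became 3 and 23, and Ifit2 (-0.01), Oas2 (0.15) and Ifi204 (0.54) were no longer called higher in heart, so the heart side of these splits depends on the scaling.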

How the data were processed

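RNA of peritoneal cells, hearts and lungs was sequenced from poly(A) libraries. The authors deposited read counts per gene in 2 tables, as whole numbers without normalization; per the labels, STAR 2.7.3a aligned reads to mm10 and featureCounts 2.0.0 counted them, and the annotation and strand setting are not given in the sources used here. Groups and mice came from the labels. A pair of β-NMN hearts carry the number 3 there, and the mouse that bears 2 in lung was taken as 2; the organ source labels name thioglycollate, while titles name CLP.

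Counts were tested in edgeR 4.0.16 (R 4.3.3): filterByExpr, TMM, quasi-likelihood F-test, Benjamini-Hochberg adjustment over all genes tested in a tissue (threshold 0.05). CPM used TMM library sizes. Positions and exon lengths came from GENCODE M21 (GRCm38) and promoter windows from RefSeq. The members and lists were chosen with earlier results of these data known. Given in full were the ligand, receptors and transcription factors, in other groups the largest rise and fall in peritoneal cells, paralog pairs, and in organs the 3 lowest p; Isg15, Rsad2, Mx1, Mx2, Cmpk2, Cxcl10 and all called genes were added after seeing values. Alternatives were DESeq2 1.42.0, limma 3.58.1 (voom), other scalings, no filter, a replicate block and leaving out each library. The scripts were tested on simulated data. The list of receptor signalling genes is not reported here.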

Additional observations from a re-analysis of the deposited data

Results flagged for a closer look

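In each group of 6 peritoneal samples the highest and lowest sample of each gene was compared with the rest by its gap to the nearest sample over the range of the group, and 16 of 84 groups had a sample past Dixon's limit, where chance gives about 1 in 20. In 15 of them β-NMN sample 6 was the high one. Among sensors and factors its levels were 216 CPM for Irf9, 956 CPM for Ddx58 and 1506 CPM for Ifih1. In the IFIT and OAS families they were 9550 CPM for Ifit2, 2000.3 CPM for Ifit3, 298 CPM for Ifit3b, 662 CPM for Oas1a and 1782 CPM for Oas3. Among the effectors they were 19898 CPM for Rsad2, 6161 CPM for Cmpk2, 463 CPM for Eif2ak2 and 526 CPM for Rtp4, and in the ISG15 system 1353 CPM for Isg15, 756 CPM for Usp18 and 1611 CPM for Trim30a. This sample was above the mean of the 12 samples for 40 of the 42 genes, and its TMM factor was 0.888, the lowest of the 12. The other was Cxcl9 in β-NMN sample 5, low at 197 CPM where the remaining β-NMN samples had 305 to 360 CPM.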

How the results depend on the processing

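In peritoneal cells, 11 genes were called higher and 3 lower, and the counts were 15 and 6 with library totals only, 12 and 8 with limma-voom, 13 and 2 with DESeq2 size factors or with no low-count filter, 14 and 3 with DESeq2 and 12 and 3 with edgeR's newer quasi-likelihood fit. Leaving out each library gave 11 to 16 higher and 2 to 5 lower, with medians of 0.12 to 0.23. Depth was looked at after seeing the data: 11 and 4 with depth class as a covariate, 3 and 1 among the deep samples and 7 and 1 among the others. Stat2 was the call most often lost.

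Replicate numbers are shared between the arms, but same-numbered samples did not deviate together in peritoneal cells (correlations -0.17 to 0.13) or lung (-0.52 to 0.30). In heart each sample correlated best with its own number (0.07 to 0.24), a hint from the data only. With the replicate block the peritoneal counts were 12 and 4 (median 0.17), with Stat2 lost (adjusted p = 0.0516 in edgeR) and Ifit3b, Eif2ak2 and Rtp4 added, and 0 genes were called in either organ (medians -0.47 in heart and -0.36 in lung). The block turned Cxcl11 in peritoneal cells to 0.17 and Ifit2 in heart to 0.071.

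In heart, DESeq2 called 1 gene lower, and leaving out each library gave 0 calls and medians of -0.84 to -0.16. In lung those fits gave 0 calls and medians of -1.03 to -0.08. The difference between the organs had 0 calls throughout, with Rsad2 at 0.98 to 1.42. For the organ levels (6 higher in heart, 15 in lung), library totals gave 3 and 23 with Ifit2 at -0.011, voom gave 6 and 27, no mouse block 4 and 12, and leaving out each mouse 6 to 8 and 12 to 19.

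Signs turned in some fits. With voom, Oasl2 in peritoneal cells was -0.060, Isg20 -0.018 and Cxcl10 -0.12, in heart Rsad2 was -0.041, Oas2 was -0.24, Trim25 -0.12 and Cxcl9 0.055, and in lung Isg20 was -0.13, Ifnar1 -0.12, Ifnar2 -0.039 and Ifit2 -0.029. Library totals gave heart values of -0.055 for Irf1, -0.014 for Oas2 and -0.052 for Trim25, and 0.038 for Trim25 in lung. DESeq2 and its size factors gave 0.0077 for Ddx58 in peritoneal cells. The deep peritoneal samples alone gave 0.073 for Irf1, 0.041 for Zbp1, 0.11 for Isg15 and 0.054 for Usp18, and the others 0.036 for Ddx58, -0.026 for Ifi35 and -0.033 for Cxcl10. Leaving out each library in turn, the sign turned for 14 of the 40 genes in heart and 17 of the 39 in lung. For the genes chosen by rule or given a value, the ranges were as follows: in peritoneal cells Cxcl11 -0.17 to 0.20, Irf1 -0.14 to 0.051, Isg15 -0.11 to 0.036, Oasl2 -0.0098 to 0.091, Cxcl10 -0.041 to 0.22, Ddx58 -0.066 to 0.051, Isg20 -0.036 to 0.15 and Usp18 -0.11 to 0.035. In heart they were Ifit2 -0.66 to 0.64, Ifit3b -1.22 to 0.046, Irf1 -0.054 to 0.26, Irf7 -0.72 to 0.26, Oas1a -0.67 to 0.33, Oas2 -0.41 to 0.75, Rsad2 -0.13 to 0.79 and Trim25 -0.12 to 0.24. In lung they were Ifih1 -0.57 to 0.11, Ifit2 -0.28 to 0.45, Ifit3b -1.23 to 0.058, Ifnar1 -0.11 to 0.50, Ifnar2 -0.078 to 0.22, Isg20 -0.32 to 0.65, Mx1 -1.51 to 0.19, Oas1a -1.14 to 0.033, Oas1g -1.02 to 0.15, Oas2 -1.05 to 0.22 and Stat2 -0.79 to 0.28. The cause of these changes was not tested. With 3 mice an arm and a coefficient of variation between replicates of 0.29 in heart and 0.44 in lung (0.23 in peritoneal cells), a missed threshold does not show that the arms were alike.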
